A study of Mus musculus with 189 samples.

Results

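The 6 genes described here code for histone H3 lysine 9 (H3K9) demethylases of the KDM3 subfamily (Kdm3a, Kdm3b and Jmjd1c, also called Kdm3c) and the KDM4 subfamily (Kdm4a, Kdm4b and Kdm4c). They were chosen by name, as the retained assays for members of these subfamilies, out of 192 quantitative PCR assays of which 156 passed the quality control of the study. Transcripts were measured with EvaGreen dye on a microfluidic PCR system, after reverse transcription and preamplification of all targets in 1 tube per sample. The level of a gene is given as 30 minus its threshold cycle (Ct) minus the mean of the same quantity for the control genes Hnrnpr, Ssu72 and Ube2e1, so that 1 unit is 1 PCR cycle and is read as a log2 unit. Each assay has its own efficiency and baseline, so that a level was set against the level of another assay only as a gap within a sample that is followed from stage to stage.

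All oocytes and embryos came from superovulated F1 females of the cross C57BL/6 x DBA/2. The embryos were sired by C57BL6 males and cultured in KSOMaa medium at low oxygen, and no group carried an induced mutation or received a compound. Of the 189 samples, the main set held 11 unfertilized MII oocytes, 14 zygotes, 21 samples of 8 units at the 2-cell stage, 7 of 3 embryos at the 3-cell stage, 12 of 6 embryos at the 4-cell stage, 27 of 7 embryos at the 8-cell stage, 26 of 2 embryos at the 16-cell stage (morula) and 50 of 7 embryos at the 32-cell stage (blastocyst). A sample was an oocyte, a zygote, a single blastomere separated with trypsin after removal of the zona pellucida, a small group of blastomeres or, from the 2-cell to the 8-cell stage, also a whole embryo. At the 2-cell stage, 11 blastomeres whose embryo the labels do not name were averaged as 1 unit. Of the 76 samples of the 16- and 32-cell stages, 52 were single cells and the others were groups of up to 7 cells. Levels were averaged over the samples of each oocyte or embryo, which gave 58 units, and these units were the replicates in every test of stages. Whole 16- and 32-cell embryos (3 each), an isolated inner cell mass, an isolated trophectoderm and 10 samples of embryonic stem cell RNA were kept apart, and 3 samples that the study had left out were not used. Which sample was run on which of the chips is not given in the sources used here, and a run effect was not tested.

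Methylation of H3K9 is a hallmark of silent chromatin. It is laid down by the SUV39, EHMT and SETDB methyltransferases, is bound by the HP1 proteins (Cbx1, Cbx3 and Cbx5), and is taken off by enzymes with a Jumonji C (JmjC) domain that use iron and 2-oxoglutarate. The KDM3 enzymes remove the mono- and dimethyl marks from H3K9. The KDM4 enzymes act on its di- and trimethyl forms, and Kdm4a, Kdm4b and Kdm4c also act on methylated H3K36. In the mouse the oocyte supplies the first transcripts of the embryo, and most of these are degraded around the 2-cell stage, when transcription from the embryo's own genome starts in earnest.

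Kdm3a and Kdm4c moved together over the stages, and Kdm4a moved the other way from zygote to 2-cell. From the 2-cell to the 8-cell stage the means of Kdm3a (-0.77), Kdm4c (-0.88) and Kdm4a (-2.19) all went down. The sequence before their RefSeq start sites is shown here as the context of these genes, since the study measured transcripts and not promoters. In the mouse assembly GRCm38.p6 Kdm3a lies on chromosome 6 (71588970 to 71632990), Kdm4a and Kdm4c on chromosome 4 (118136957 to 118180090 and 74242497 to 74405864), Jmjd1c on chromosome 10 (67096351 to 67256326) and Kdm4b on chromosome 17 (56325970 to 56403774). RefSeq windows were found for 4 of the 6 members, Kdm3a, Kdm4a, Kdm4c and Jmjd1c. Each sequence is the 250 bases before a RefSeq start site of that assembly, 5′ to 3′ on the strand of the gene, so that it ends just before that start site. By the gene spans given above, the printed Kdm3a and Kdm4a windows end inside their genes. The inner Kdm4c window lies wholly inside its gene. Capitals mark 3 motifs searched on both strands: the CCAAT box (CCAAT), the GC box (GGGCGG) and the E box (CACGTG). Among 32851 mouse windows of this length 33.8% held a CCAAT box, 32.7% a GC box and 6.02% an E box.
Kdm3a, chr6:71632918-71633167, minus strand: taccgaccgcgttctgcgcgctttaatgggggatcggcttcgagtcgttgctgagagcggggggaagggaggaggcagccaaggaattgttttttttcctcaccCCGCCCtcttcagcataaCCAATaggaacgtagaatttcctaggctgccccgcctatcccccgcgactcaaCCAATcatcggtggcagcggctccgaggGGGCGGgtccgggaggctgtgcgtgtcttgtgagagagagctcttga
Kdm4c, chr4:74251629-74251878, plus strand: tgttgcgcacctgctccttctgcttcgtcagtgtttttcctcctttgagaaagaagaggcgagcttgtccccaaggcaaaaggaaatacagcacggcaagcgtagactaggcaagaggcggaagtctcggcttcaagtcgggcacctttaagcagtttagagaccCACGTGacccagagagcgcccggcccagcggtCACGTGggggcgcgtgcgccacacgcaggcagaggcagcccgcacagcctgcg
Kdm4c, chr4:74242247-74242496, plus strand: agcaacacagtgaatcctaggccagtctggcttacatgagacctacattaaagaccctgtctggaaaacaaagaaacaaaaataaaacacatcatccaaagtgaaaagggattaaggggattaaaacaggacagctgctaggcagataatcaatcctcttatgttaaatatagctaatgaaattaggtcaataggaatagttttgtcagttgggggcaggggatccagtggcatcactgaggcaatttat
Kdm4a, chr4:118180044-118180293, minus strand: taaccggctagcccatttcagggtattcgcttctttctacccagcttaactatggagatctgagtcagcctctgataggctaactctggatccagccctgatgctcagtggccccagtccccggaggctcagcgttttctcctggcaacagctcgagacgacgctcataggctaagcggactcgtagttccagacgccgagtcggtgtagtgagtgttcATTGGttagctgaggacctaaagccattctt
RefSeq gives 3 windows for Kdm3a, of which the outermost is printed, and it held 2 CCAAT boxes, 2 GC boxes and 20 CpG. Of the other Kdm3a windows, the one at 71632687 to 71632936 held 0 CCAAT boxes, 4 GC boxes and 31 CpG, and the one at 71609140 to 71609389 held no match and 0 CpG. The inner Kdm4c window held 2 E boxes and 19 CpG, and the outer one held no match and 0 CpG, against a median of 6 CpG over all windows. The Kdm4a window held 1 CCAAT box and 12 CpG, and this box lies inside the gene span given above. A match is a description of the letters and not a bound site.

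The 6 demethylases were detected together in nearly all samples. A value at a Ct of 30 was taken as undetected, and 11 of the 1008 member values were undetected. Kdm3a, Kdm3b, Jmjd1c and Kdm4a were detected in every sample of the main set, Kdm4c in 164 and Kdm4b in 161. All 6 were above this limit in 157 samples, among them 11 of 11 MII oocytes, and 43 of 50 samples at the 32-cell stage. All 6 members and all 5 listed H3K9 methyltransferases (Ehmt2, Setdb1, Setdb2, Suv39h1 and Suv39h2) were detected in the same sample in 123 cases. Every sample held at least 5 of the demethylases and 3 of these methyltransferases. An undetected value does not show that a transcript was absent. The mean Ct of the control genes ran from 11.9 to 20.2 over the main set, with a median of 12.9 in MII oocytes and 17.7 in the 32-cell samples, so that a value of an undetected gene was below -16.5 in an oocyte but only below -9.78 in the shallowest 32-cell sample.

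**Figure D1:**
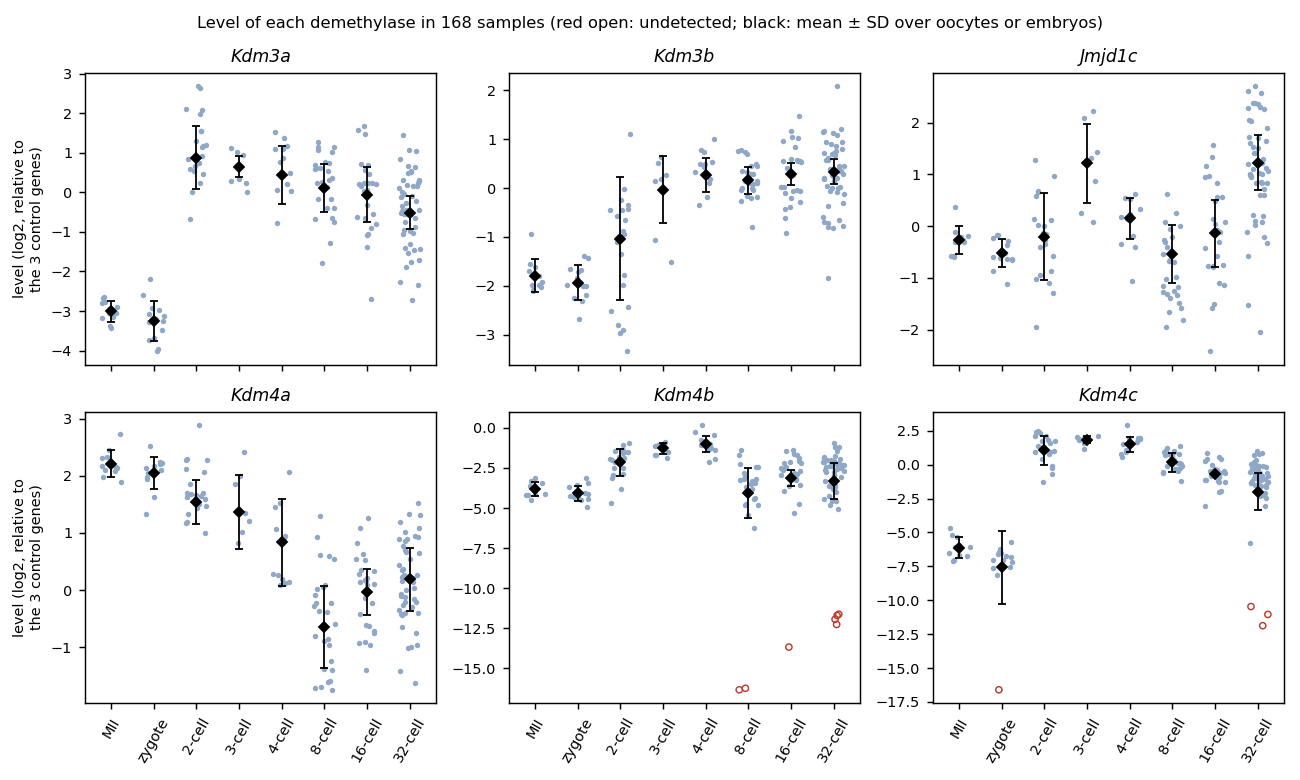
Level of each of the 6 demethylases (y axis, log2 relative to the control genes) in every sample of the main set by stage (x axis). Blue points are samples with a detected value, red open points are undetected values, and black diamonds with bars are the mean ± SD over oocytes or embryos. Kdm3a and Kdm4c jump between zygotes and 2-cell samples, Kdm4a declines to the 8-cell stage, and the 11 undetected values belong to Kdm4b and Kdm4c.

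Kdm3a, which is known for removing H3K9 dimethylation and for its part in spermatogenesis, had a low level in oocytes and rose at the 2-cell stage. Its level ran from -3.44 to -2.65 with a median of -3.04 in the 11 MII oocytes and from -4.02 to -2.19 with a median of -3.24 in the 14 zygotes. In the 21 samples at the 2-cell stage it ran from -0.67 to 2.68 with a median of 1.15. All 2-cell samples were above all oocytes and zygotes. The share of all genes whose samples separate in this way between stages, here or below, is not given. The mean over units rose from -3.25 ± 0.51 (SD, n = 14) in zygotes to 0.88 ± 0.80 (SD, n = 8), a difference of 4.13 with a standard error of 0.25 (limma, adjusted p = 3.23e-21), which is 17.5-fold if each cycle is a doubling. After that the mean fell at each later stage in the set, to -0.52 ± 0.42 (SD, n = 7) in 32-cell embryos, but no single step from the 2-cell stage on passed the test. Between 2-cell and 32-cell embryos the difference was -1.40 (standard error 0.29, limma adjusted p = 2.56e-05), where 67.3% of all genes passed. In the order of its stage means, 2-cell, 3-cell, 4-cell, 8-cell, 16-cell, 32-cell, MII and zygote, the only neighbours that differed beyond their spread were the 32-cell stage and the oocytes (2.49, standard error 0.27, limma adjusted p = 4.62e-12), a comparison in which 84.0% of all genes passed.

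Kdm4c, which acts on trimethylated H3K9, had the steepest rise of the 6. Its level was lowest before the 2-cell stage, with values from -7.10 to -4.64 and a median of -6.11 in oocytes. In zygotes the median was -6.90, with 13 values between -8.11 and -5.67 and 1 zygote undetected. In 2-cell samples Kdm4c ran from -1.28 to 2.5 with a median of 1.28. Again the 2-cell samples did not overlap with the earlier ones. The mean over units rose from -7.58 ± 2.67 (SD, n = 14) in zygotes to 1.04 ± 1.08 (SD, n = 8), by 8.62 with a standard error of 0.69 (limma, adjusted p = 3.30e-16). Without the undetected zygote the difference was 7.93. The level was highest at the 3-cell stage (1.84 ± 0.27, SD, n = 3) and lower in 32-cell embryos (-2.0 ± 1.38, SD, n = 7), where 3 of 50 samples were undetected. The single steps after the 2-cell stage did not pass the test, except that the fall of 1.33 from the 4-cell to the 8-cell stage passed when undetected values were left out (limma, adjusted p = 0.00487) or set to -10 (adjusted p = 0.0237). Over all of these steps, 32-cell embryos were lower than 2-cell embryos (-3.04, standard error 0.80, limma adjusted p = 0.000833).

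Kdm4b and Kdm3b also rose between zygotes and 2-cell embryos, and rose again to the 4-cell stage. Kdm4b, another H3K9 trimethyl demethylase, had levels from -4.94 to -3.13 with a median of -4.18 in zygotes and from -4.67 to -0.95 with a median of -1.92 in 2-cell samples. The ranges overlapped, and the mean over units rose by 1.93 with a standard error of 0.36 (limma, adjusted p = 4.91e-06). It rose by a further 1.14 (standard error 0.44, adjusted p = 0.0412) to -1.0 ± 0.50 (SD, n = 6) in 4-cell embryos, a call that was lost in 6 of the alternative settings. Between the 4-cell and the 8-cell stage Kdm4b fell by 3.09 on the log2 scale with a standard error of 0.45 (limma, adjusted p = 7.05e-08), from values between -2.14 and 0.19 in 12 samples with a median of -1.11 to values between -6.27 and -1.37 in 25 detected samples, with 2 others undetected. The ranges overlapped between -2.14 and -1.37. The fall was 2.67 with undetected values left out and passed the test in all alternatives run.

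Kdm3b, the third KDM3 family gene measured next to Kdm3a and Jmjd1c, ran from -2.68 to -1.38 with a median of -1.97 in zygotes and from -3.35 to 1.12 with a median of -0.94 in 2-cell samples. The 2-cell samples were spread over both sides of the zygotes. The mean over units rose by 0.90 with a standard error of 0.25 (limma, adjusted p = 0.00149), and then by 1.30 with a standard error of 0.31 (adjusted p = 0.00116) to 0.27 ± 0.35 (SD, n = 6) in 4-cell embryos. With single cells only the first of these differences was 0.18 and did not pass (adjusted p = 0.560), and among whole embryos only the second was -0.03 (adjusted p = 0.983), where 1.28% of all genes passed. From the 4-cell stage on Kdm3b kept a mean between 0.16 and 0.33 in the 8-, 16- and 32-cell embryos, and none of these steps passed the test. In its order of stage means only 2-cell embryos and oocytes differed as neighbours (0.76, standard error 0.27, limma adjusted p = 0.00991), where 73.7% of all genes passed.

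Kdm4a, whose protein demethylates trimethylated H3K9 and H3K36, was the only one of the 6 with its highest level in oocytes. It ran from 1.89 to 2.73 with a median of 2.16 in the 11 oocytes and from 1.34 to 2.53 with a median of 2.08 in the 14 zygotes. In the 12 samples at the 4-cell stage it ran from 0.09 to 2.07 with a median of 0.59, and in the 27 samples at the 8-cell stage from -1.74 to 1.29 with a median of -0.39. All 8-cell samples were below all oocytes and zygotes. The unit mean was lower in 2-cell embryos than in zygotes (-0.51, standard error 0.21, limma adjusted p = 0.0327), lower again in 4-cell embryos (-0.71, standard error 0.26, limma adjusted p = 0.0335, a call that 4 of 21 alternative settings lost and 1 turned) and lowest in 8-cell embryos (-1.49, standard error 0.27, adjusted p = 6.07e-06). The first fall was -0.08 with Hnrnpr left out of the control genes (adjusted p = 0.785), and it was lost in 7 of the alternative settings. In the order of its stage means, MII, zygote, 2-cell, 3-cell, 4-cell, 32-cell, 16-cell and 8-cell, the neighbours that differed were zygote and 2-cell and the 4-cell and 32-cell stages (0.65, standard error 0.27, adjusted p = 0.0307), where 66.0% of all genes passed between the latter.

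Jmjd1c, the KDM3 family gene whose product is least well defined as a demethylase, showed the smallest range among stages and no neighbours in its order of stage means that differed beyond their spread. Its level ran from -0.59 to 0.37 with a median of -0.27 in oocytes and from -1.11 to -0.16 with a median of -0.56 in zygotes. In 2-cell samples it ran from -1.94 to 1.28 with a median of -0.15, on both sides of the earlier samples, and the difference of 0.32 from zygotes did not pass (limma, adjusted p = 0.196). Against 4-cell embryos the 8-cell mean fell by 0.69 on the log2 scale (standard error 0.28, adjusted p = 0.0370), a call that was lost in 7 of the alternative settings. It rose by 1.36 with a standard error of 0.41 from the 16-cell to the 32-cell stage (adjusted p = 0.0186), with values from -2.42 to 1.57 and a median of -0.10 in 26 samples against values from -2.04 to 2.70 and a median of 1.09 in 50.

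**Figure D2:**
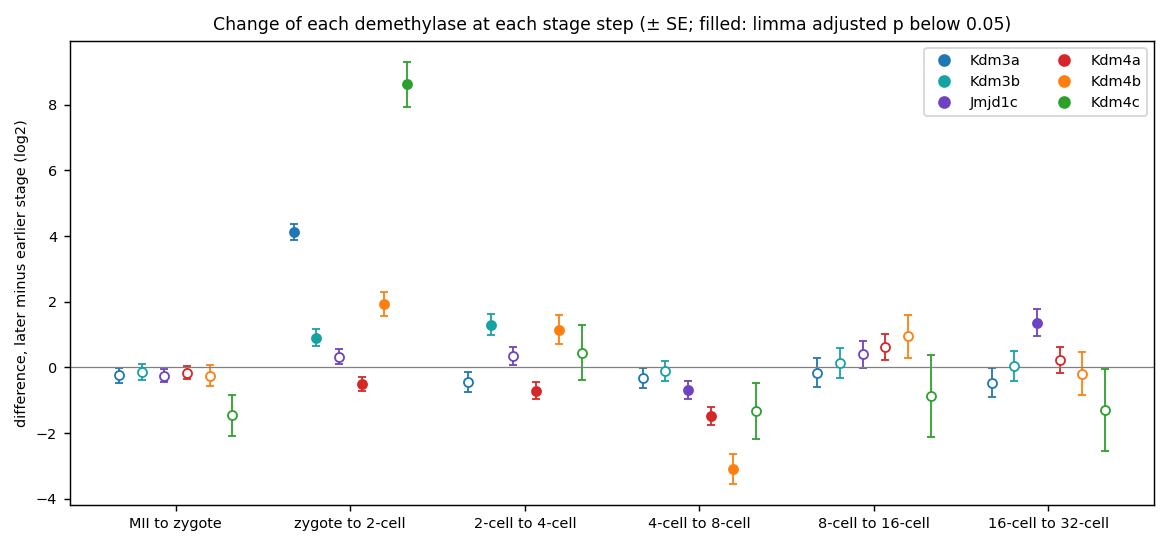
Difference between neighbouring stages (y axis, later minus earlier stage, log2 relative to the control genes) for each demethylase at each of the 6 stage steps (x axis). Points are limma estimates over oocyte or embryo means, bars are standard errors, and filled points have an adjusted p below 0.05. The largest differences are those of Kdm4c (8.62) and Kdm3a (4.13) from zygote to 2-cell and that of Kdm4b (-3.09) from 4-cell to 8-cell.

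Over the 6 stage steps 12 of 36 member differences passed the test, where 31.9% of all gene-by-step tests did. From oocyte to zygote 0 of the 6 passed (limma, with 1 unadjusted p under 0.05, that of Kdm4c at 0.0238), where 1.92% of the 156 genes passed. From zygote to 2-cell 4 members rose and 1 fell, with 68.6% of all genes called (29.5% higher and 39.1% lower), and the median difference was 1.42 over the members and -0.33 over all genes. Between 2-cell and 4-cell embryos 2 rose and 1 fell, with 32.7% of all genes called (7.05% higher and 25.6% lower). Between 4-cell and 8-cell embryos 3 fell and none rose, with 49.4% of all genes called (35.9% lower), and the medians were -1.01 over the members and -0.51 over all genes. Between 8-cell and 16-cell embryos 0 passed (limma, with 0 at an unadjusted p under 0.05), against 28.2% of all genes, and between 16-cell and 32-cell embryos 1 rose (10.9% of all genes, 8.97% higher).

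Samples before and after the first cleavages differ in how much of the embryo they hold, and the whole embryos give a comparison without control genes. This comparison was added after the data had been seen. In whole oocytes, zygotes and embryos, 30 minus Ct of Kdm4c ran from 9.95 to 12.8 in 11 oocytes, up to 11.3 in 14 zygotes, and was 16.4, 17.21 and 17.3 in the 3 whole 2-cell embryos. Kdm4a ran from 18.7 to 19.9 in zygotes and was 16.0, 17.4 and 17.5 in the whole 2-cell embryos. Both genes changed without overlap between the groups, in opposite directions. The share of all genes without overlap at this step is not given here. Per whole embryo and without normalization, Kdm4c rose by 7.48 (standard error 1.16, limma adjusted p = 4.84e-07), Kdm3a by 2.73 (adjusted p = 6.42e-10) and Kdm4b by 0.94 (adjusted p = 0.0452) from zygote to 2-cell, where 77.6% of all genes passed (17.9% higher and 59.6% lower) and the median of all genes was -1.79. Kdm4a fell by 2.16 (standard error 0.35, adjusted p = 1.35e-06). Kdm3b (0.46, adjusted p = 0.281) and Jmjd1c (-0.56, adjusted p = 0.152) did not pass. The control genes had a mean 30 minus Ct of 17.1 in zygotes and 15.5 in the whole 2-cell embryos. Relative to them, Kdm4a differed by -0.57 in these embryos and did not pass (limma, adjusted p = 0.0532). Jmjd1c was then higher by 1.03 (adjusted p = 8.43e-05), and the median of all genes was -0.20. The share of all genes that passed in that fit is not given here. Again without normalization, Kdm4b fell by 2.02 per whole embryo between the 4-cell and 8-cell stages (standard error 0.55, adjusted p = 0.00496). The other 5 did not pass, where 25.6% of all genes passed (11.5% lower). The whole 16-cell embryos stood apart in their control Ct, which was 11.8, 10.2 and 10.2 against 13.5, 12.5 and 12.0 in the whole 32-cell embryos, and differences without normalization that involve them move with it.

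Between MII oocytes and the 9 embryos of the 16- and 32-cell stages, 5 of the 6 demethylases changed relative to the control genes, 4 upward and 1 downward, where 84.6% of all genes passed (37.8% higher, 46.8% lower). Kdm4c was higher by 4.41 (standard error 0.70, limma adjusted p = 1.11e-07), Kdm3a by 2.59 (standard error 0.25, adjusted p = 1.00e-13), Kdm3b by 2.12 (standard error 0.26, adjusted p = 1.63e-10) and Jmjd1c by 1.19 (standard error 0.23, adjusted p = 4.63e-06). With the whole 16- and 32-cell embryos added, Jmjd1c was higher by only 0.54 and did not pass (limma, adjusted p = 0.0619). Of all 156 genes, 60 were then called higher and 76 lower. Kdm4a was lower by 2.07 on the log2 scale (log2 difference -2.07, standard error 0.22, adjusted p = 1.82e-12). Kdm4b differed by 0.54 and did not pass (adjusted p = 0.159), but it passed with undetected values left out (1.11, adjusted p = 5.00e-05). These directions depend on the scale. In the deposited normalized table, which is relative to Gapdh, Hspa8 and Lmnb1, the same differences were -0.97 for Kdm3a, -1.44 for Kdm3b, -2.36 for Jmjd1c and -3.02 for Kdm4b, and Kdm4c (0.85) did not pass. Without normalization they were -1.71, -2.18, -3.10 and -3.76 for these 4 genes, and Kdm4c (0.11) did not pass. A late sample held a single blastomere or a group of up to 7, against a whole oocyte. Values without normalization include this difference in input. The median difference of all 156 genes was -0.35 with the control genes, -3.91 in the deposited table and -4.65 without normalization, and between -0.66 and 0.13 in the other alternatives. Relative to the median with the control genes, the differences were 2.94 for Kdm3a, 2.47 for Kdm3b, 1.54 for Jmjd1c, 0.89 for Kdm4b, 4.76 for Kdm4c and -1.72 for Kdm4a. A change of control genes shifts all genes alike and leaves these values as they are.

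The gaps between members do not depend on the choice of control genes, since these cancel within a sample. They can still depend on the amount of RNA where 2 assays follow it differently, as in the stem cell dilutions described below. The part of this in the gaps was not tested. In the 11 oocytes Kdm4c had a gap to Kdm4a between -9.39 and -6.72, with a mean of -8.33 ± 0.80 (SD, n = 11). In the 2 embryos of the 16-cell stage the gap was -0.89 and -0.43, and in the 7 embryos of the 32-cell stage it ran from -4.72 to -0.90. The groups did not overlap, and the gap narrowed by 6.49 between oocytes and late embryos (exact permutation test, two-sided, adjusted p = 1.79e-05 over 15 pairs). Kdm4a lay 4.87 to 5.6 cycles above Kdm3a in oocytes and from -0.47 to 1.74 in late embryos, a change of -4.66. Its gap to Kdm3b changed by -4.19, its gap to Jmjd1c by -3.27, and the gap of Kdm4b to it by 2.62, each without overlap and with the same exact permutation adjusted p = 1.79e-05. The p before adjustment, 5.95e-06, is the smallest that the 167960 permutations can give. In all, 14 of the 15 gaps passed, and 5 of them, all with Kdm4a, did not overlap between the groups. These 5 are 33.3% of the gaps between members, and 54.0% of the gaps over all 12090 pairs of genes did not overlap. With undetected values left out, the gaps of Kdm4c to Kdm3a, Kdm3b, Jmjd1c and Kdm4b did not overlap either. The share over all pairs in that setting is not given here. How many of all pairs pass the permutation test was not computed. The gap of Kdm4b to Jmjd1c did not pass (-0.65, exact permutation adjusted p = 0.117). With single cells only, the gap of Kdm4c to Kdm3a no longer passed (0.98 instead of 1.82, exact permutation adjusted p = 0.127). Without 16-cell embryo 5 the gap of Kdm3b to Kdm3a did not pass (-0.38, exact permutation adjusted p = 0.0705), and without 16-cell embryo 4 that of Kdm4b to Jmjd1c passed (-0.91, exact permutation adjusted p = 0.0156).

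**Figure D3:**
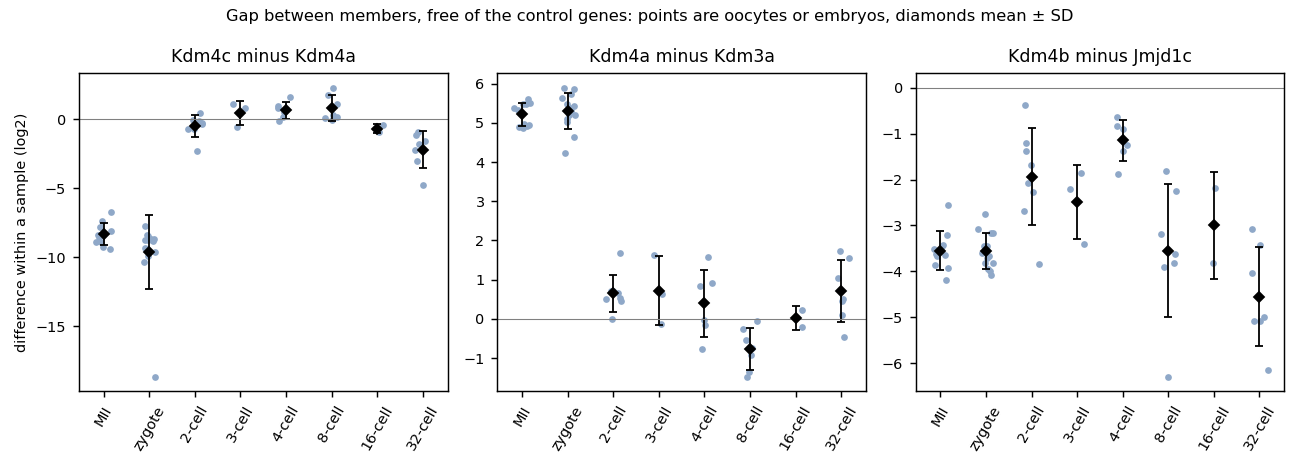
Difference of 2 demethylases within a sample (y axis, log2) by stage (x axis) for Kdm4c minus Kdm4a, Kdm4a minus Kdm3a and Kdm4b minus Jmjd1c. Points are oocytes or embryo means and diamonds with bars are mean ± SD. The first 2 gaps close between zygotes and 2-cell embryos, while the gap of Kdm4b to Jmjd1c overlaps between oocytes and late embryos.

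Across the 58 oocytes and embryos, Kdm3a and Kdm4c had the closest pattern of any 2 members (Pearson r = 0.90, Spearman rho = 0.89). The lowest correlation was that of Kdm3b with Kdm4a (r = -0.67, rho = -0.60). The median over the 15 pairs of members was 0.39, against 0.0551 over all 12090 pairs of genes. These values describe units that share stage, sample input and control genes. Among 76 late samples, after each embryo's mean had been taken out, the 15 correlations ran from -0.14 to 0.36 with a median of 0.144, against 0.0742 over all pairs. Among retained genes other than the members and control genes, those most like Kdm3a over the 58 units were Kdm5b (r = 0.94), Hdac1 (0.93) and Tead4 (0.92). Within that set the same 3 were most like Kdm4c (0.91, 0.91 and 0.90). Kdm5b is an H3K4 demethylase, Hdac1 a histone deacetylase and Tead4 a transcription factor of the trophectoderm. Kdm4a was most like Sfmbt1 (0.90), Whsc1 (0.88) and ASF1B (0.88), and Kdm3b like Smyd5 (0.87), Klf2 (0.86) and Tead4 (0.83). Kdm4b (Nf2, 0.77, Kdm5b, 0.68, and Kdm5d, 0.68) and Jmjd1c (Carm1, 0.69, Setd5, 0.67, and Jmjd4, 0.63) had less similar neighbours.

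The other genes of H3K9 methylation moved in both directions. The 4 other H3K9 demethylases listed, Phf2, Phf8, Jhdm1d and Kdm1a, all fell from zygote to 2-cell (-2.83, -2.02, -0.47 and -0.80). In late embryos 3 of them were lower than in oocytes, with Jhdm1d at -5.11 and Phf8 at -4.12. Of the 5 listed H3K9 methyltransferases, Suv39h1 (10.30) and Ehmt2 (6.31) rose from zygote to 2-cell while Suv39h2 (-2.77) and Setdb1 (-1.09) fell, and Setdb2 did not pass. From oocytes to late embryos all 5 passed, with Suv39h1 (8.36) and Ehmt2 (5.77) higher and Suv39h2 (-6.99), Setdb2 (-2.84) and Setdb1 (-0.82) lower. Of the HP1 genes, which bind methylated H3K9, and their partner Trim28, Cbx3 (8.81) and Trim28 (0.62) rose from zygote to 2-cell and Cbx1 (-2.57) and Cbx5 (-0.79) fell. Of 7 listed JmjC demethylases of other H3 residues, Kdm5a (8.30) and Kdm5b (5.85) rose and Kdm2b (-2.32), Kdm6a (-1.63) and Kdm6b (-1.18) fell. The 6 members thus had a median of 1.42 at this step, against -1.41 for the other H3K9 demethylases, 0.52 for the methyltransferases and -0.19 for the other JmjC genes. These are counts and medians of short lists, and no test between the lists was made.

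Among sister cells of 1 embryo, the spread of the members was larger at the 32-cell stage than at the 4-cell stage. Over 4 single cells of 2 embryos at the 2-cell stage the SD within embryos was 0.94 for Kdm3a, 1.05 for Kdm3b, 0.46 for Jmjd1c, 0.32 for Kdm4a, 0.78 for Kdm4b and 1.0 for Kdm4c. For Jmjd1c the SD within embryos was 0.35 over 9 single cells of 3 embryos at the 4-cell stage, 0.66 over 24 cells at the 8-cell stage, 0.94 over 20 cells at the 16-cell stage and 1.06 over 32 cells at the 32-cell stage. For Kdm4a it was 0.35, 0.62, 0.64 and 0.67 at the same stages. Kdm3a had 0.41, 0.46, 0.84 and 0.99, and Kdm3b 0.38, 0.33, 0.62 and 0.77. Over detected values, Kdm4b had 0.63 at the 4-cell stage and 1.17 at the 32-cell stage, and Kdm4c 0.48 and 1.19. The control Ct was higher at late stages, with a median of 14.9 in 4-cell samples and 17.7 in 32-cell samples, and its part in these SDs was not tested. In 3 repeats of 200 pg of embryonic stem cell RNA the SD of the normalized level was between 0.05 (Kdm4a) and 0.36 (Kdm4b).

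The 16- and 32-cell stages hold cells on the way to the inner cell mass (ICM), which forms the embryo proper, and to the trophectoderm, which forms the placenta. Samples were ordered along a lineage score, the mean level of 12 ICM genes minus that of 8 trophectoderm genes, lists that the study took from these same cells. Over the 76 late samples the score ran from -8.71 to 10.12. Within embryos Jmjd1c rose with the score by 0.0781 per unit (standard error 0.0191, limma over 9 embryo slopes, each weighted by the within-embryo sum of squares of the score, adjusted p = 0.0135), with a positive slope in 7 of 9 embryos. Kdm3a rose by 0.0694 (standard error 0.0211, adjusted p = 0.0345), positive in 6 of 9. These were 2 of 6 members, where 29.5% of all genes passed (17.3% positive and 12.2% negative). Kdm3b (0.0147), Kdm4a (0.00586), Kdm4b (0.0160) and Kdm4c (-0.0193) did not pass, with adjusted p between 0.579 and 0.852. The correlation within embryos was 0.447 for Jmjd1c and 0.415 for Kdm3a over 76 samples that share embryos and control genes.

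The slopes rest on the embryos whose samples spanned both lineages. The slopes of Jmjd1c were 0.0278, 0.150, 0.0949, 0.160, -0.299, -0.397 and 0.0911 in the 32-cell embryos numbered 1, 8, 9, 10, 11, 12 and 13, and 0.0751 and 0.0544 in the 16-cell embryos 4 and 5. The negative slopes were those of embryos 11 and 12, whose samples, 3 and 5 in number, had scores only between 5.98 and 9.28 and which carried 0.349% and 0.171% of the weight. Without weights the mean slopes were -0.00468 for Jmjd1c and -0.0643 for Kdm3a, and neither passed (limma, adjusted p = 0.974 and 0.628). Only 1 of 156 genes passed there. Of 23 alternative settings, 12 lost the call of Kdm3a and 2 turned its direction. For Jmjd1c, 3 lost the call and 2 turned it. Kdm3a did not pass with single cells only (0.0704, adjusted p = 0.125), in 32-cell embryos only (0.0727, adjusted p = 0.0840), or without embryo 4 (0.0658, adjusted p = 0.0634), embryo 1 (0.0779, adjusted p = 0.0578), embryo 8 (0.0598, adjusted p = 0.102), embryo 9 (0.0697, adjusted p = 0.0665) or embryo 13 (0.0617, adjusted p = 0.105). Jmjd1c kept its call without any single embryo but not with single cells only (0.0759, adjusted p = 0.0927). In the isolated ICM, 1 sample, the level of Jmjd1c was 0.39, and in the isolated trophectoderm, also 1 sample, it was -1.30. For Kdm3a these levels were -0.18 and -0.71, and for Kdm4a -0.52 and -0.48. With 1 sample each there is no test. Within embryos the score and the control Ct had a correlation of 0.15 over the 76 samples.

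**Figure D4:**
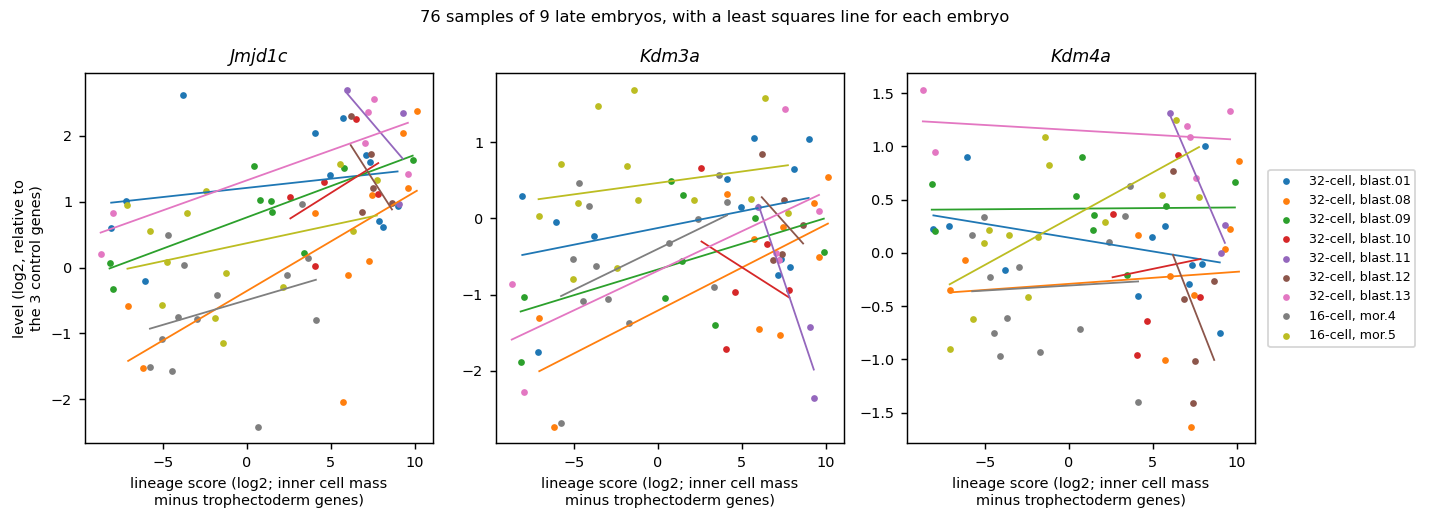
Level of Jmjd1c, Kdm3a and Kdm4a (y axes, log2 relative to the control genes) against the lineage score (x axis, log2, mean of ICM genes minus mean of trophectoderm genes) in 76 samples of 9 late embryos, with a colour and a least squares line for each embryo. Lines of Jmjd1c rise in 7 of 9 embryos and those of Kdm3a in 6, and the short steep lines belong to embryos 11 and 12, whose scores span little.

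Whole 32-cell embryos gave lower levels of several members than the embryos sampled as blastomeres, a comparison added after the data had been seen. The means of Jmjd1c in the 7 embryos sampled as blastomeres ran from 0.34 to 2.01 with a median of 1.28, and its levels in the 3 whole embryos were -1.39, -1.28 and -1.41. Kdm4a ran from -0.47 to 1.13 with a median of 0.08 in the former and was -1.32, -1.80 and -2.50 in the latter. Neither gene overlapped between the 2 kinds of sample. Kdm3b did not overlap either, with -0.14 to 0.62 in the former and -0.99 to -0.31 in the latter. The share of all genes without overlap is not given here. Jmjd1c was lower in whole embryos by 2.58 on the log2 scale (log2 difference -2.58, standard error 0.34, limma adjusted p = 1.71e-08) and Kdm4a likewise (-2.06, standard error 0.33, adjusted p = 9.99e-07), where 40.4% of all genes passed and the median of all genes was -0.53. Kdm3a (-0.84, adjusted p = 0.0631), Kdm3b (-0.90, adjusted p = 0.0558), Kdm4b (-0.19) and Kdm4c (-0.89) did not pass. At the 16-cell stage none of the 6 passed (limma, with 0 at an unadjusted p under 0.05), where 3.21% of all genes passed. The lineage score moved with this difference. It was -2.79, -3.28 and -3.51 in the whole 32-cell embryos and between 0.78 and 8.10 in the means of the 7 embryos sampled as blastomeres, and its part in the difference was not tested.

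The rise of Jmjd1c between 16-cell and 32-cell embryos depended on the setting. Of 21 alternative settings 7 lost the call and 1 turned its direction, and the adjusted p was 0.103 without Hnrnpr among the control genes, 0.0572 without Ube2e1, 0.0519 with all mapped samples and 0.415 with the replicate block (limma). The mean lineage score, ICM genes minus trophectoderm genes, was -1.43 and -0.88 in the 2 embryos of the 16-cell stage and between 0.78 and 8.10 in the 7 of the 32-cell stage, and its part in the rise was not tested. Over whole embryos alone the difference was -1.28 (standard error 0.28, limma adjusted p = 0.000344), with levels of -0.24, -0.30 and 0.30 at the 16-cell stage that did not overlap with those at the 32-cell stage. In the same fit Kdm3a (-1.25, adjusted p = 0.00832), Kdm4a (-1.04, adjusted p = 0.0124) and Kdm3b (-0.95, adjusted p = 0.0173) were lower at the 32-cell stage, where 41% of all genes passed (31.4% lower). With the whole embryos added to the blastomere samples the difference of Jmjd1c was 0.55 (adjusted p = 0.311), and without embryo 4 of the 16-cell stage it was 0.90 (adjusted p = 0.483). The 7 embryos sampled as blastomeres were covered by 3 to 12 samples each.

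**Figure D5:**
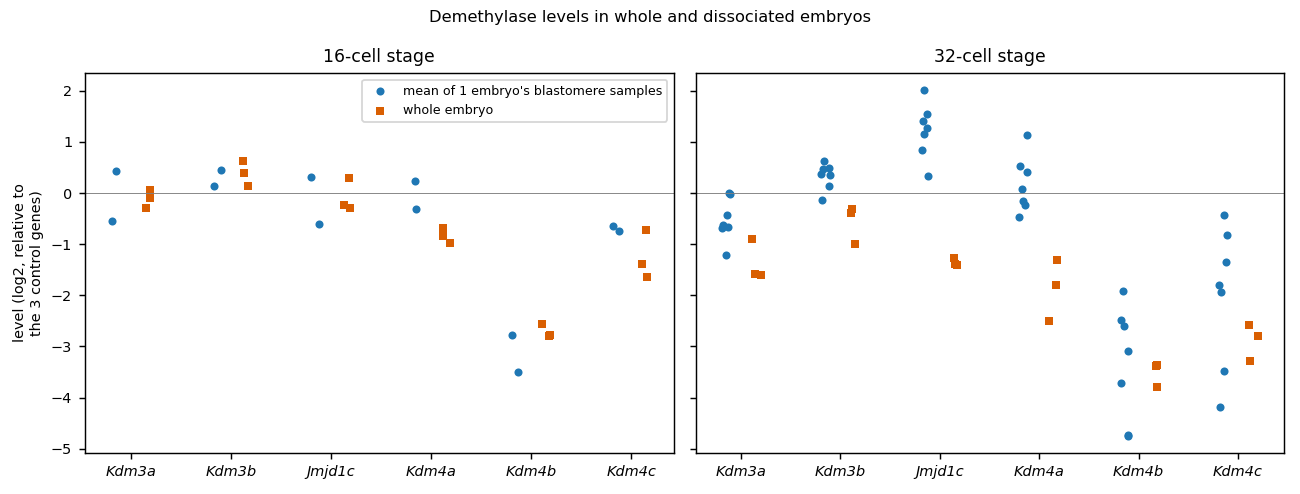
Levels of the 6 demethylases (y axis, log2 relative to the control genes) in 16-cell (left) and 32-cell embryos (right). Blue circles are the means of the blastomere samples of 1 embryo and orange squares are whole embryos, 3 per stage. At the 32-cell stage the circles and squares of Jmjd1c, Kdm4a and Kdm3b do not overlap, and assays are not to be compared with each other on this axis.

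Dilutions of embryonic stem cell RNA show how far the assays follow the amount of RNA. In a series of 4 amounts from 200 to 25 pg the Ct fell by 1.03 cycles per doubling of the RNA for Jmjd1c, 1.06 for Kdm3b, 1.16 for Kdm4c, 0.92 for Kdm3a and 0.86 for Kdm4a, against 1.13 for the mean of the control genes. The Ct of Kdm4b fell by 1.60 cycles per doubling over its 3 detected amounts and was undetected at 25 pg. In a second series of 800, 160 and 32 pg the fall per doubling was 1.45 cycles for Kdm4b and 1.47 for Kdm3a, and between 1.03 and 1.22 for the other 4. Accordingly the normalized level of Kdm4b fell from -1.96 at 800 pg to -3.45 at 32 pg, and that of Kdm3a from -0.15 to -1.76, with the RNA being the same. In the other series Kdm3a went the opposite way, from 0.45 at 200 pg to 1.14 at 25 pg. The amounts of RNA in the embryo samples were not measured. The part of this in the stage differences of Kdm4b and Kdm3a, and in their gaps to other members, was not tested.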

How the data were processed

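Transcripts of 192 assays were measured by the authors on BioMark chips with EvaGreen chemistry, after lysis with a CellsDirect kit and 18 preamplification cycles. The deposited Ct values, a score for which lower means more transcript, came from the Fluidigm Real-Time PCR Analysis Software, with 30 as the limit. The authors marked 36 assays as failed, and 156 were kept. The deposited normalized table holds log2 values, here found to be relative to Gapdh, Hspa8 and Lmnb1, all marked failed, within 1.03e-08. Levels were therefore recomputed as 30 minus Ct, minus its mean over Hnrnpr, Ssu72 and Ube2e1. Undetected genes numbered 7 to 44 per sample.

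Oocyte and embryo means (58) were fitted by stage with limma 3.58.1 in R 4.3.3, with Benjamini-Hochberg adjustment over 156 genes and a threshold of 0.05. Slopes on the lineage score, with the tested gene left out of it, were fitted in each of 9 late embryos and weighted by the within-embryo sum of squares of the score. Gaps between members were tested by exact permutation with NumPy 2.4.6. The setting with whole 16- and 32-cell embryos added used 100000 random permutations instead. The genes named were the members, the genes of fixed lists (other H3K9 demethylases, H3K9 methyltransferases, HP1 genes with Trim28, and 7 JmjC demethylases of other residues), and the control genes. For each member, the 3 genes most like it outside the members and control genes were also named. The lists do not hold every JmjC gene that was kept. The members and lists were chosen with earlier results of these data known. Methods were tested on simulated data. Labels do not say whether embryos came from separate litters, so p-values measure the spread between these samples. Alternatives changed the control genes, scale, undetected values, samples and embryos left out. No 2 samples held identical values, and 0 other columns of sample values were left unused.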

Additional observations from a re-analysis of the deposited data

Results flagged for a closer look

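Among 30 groups of embryo means and slopes, 7 held a value far from the rest by Dixon's test, where chance gives about 1 in 20. Kdm4c was -1.28 in 1 of the 8 units at the 2-cell stage, next to 0.83 for the nearest and a median of 1.15. Jmjd1c was -0.61 in 1 of 6 embryos at the 4-cell stage (nearest 0.16) and 0.62 in 1 of 7 at the 8-cell stage (nearest -0.41). Kdm4b was -7.37 in 1 of 7 embryos at the 8-cell stage (nearest -4.31). This mean is below the lowest detected 8-cell value of Kdm4b, -6.27, and so includes an undetected value entered at a Ct of 30. Of the slopes on the lineage score, that of Kdm3a was -0.656 in embryo 11 (nearest -0.247), and those of Kdm3b and Kdm4c were 0.409 and 2.83 in embryo 12 (nearest 0.0561 and 0.0621). Embryos 11 and 12 carried 0.349% and 0.171% of the weight.

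Kdm4d, another gene of the KDM4 family, was measured by an assay that the study marked as failed, so that it is no member here. It was detected in 31 samples of the main set: 11 of 11 oocytes, 10 of 14 zygotes, 10 of 21 samples at the 2-cell stage, and 0 of 7, 0 of 12, 0 of 27, 0 of 26 and 0 of 50 from the 3-cell to the 32-cell stage. It was detected in 1 of 10 samples of embryonic stem cell RNA.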

How the results depend on the processing

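Of the alternative settings for single stage differences, 809 kept the side of the threshold, 39 lost a call, 17 gained one and 17 turned. A turn was counted only where the main or the alternative difference passed the test. Turns in which neither passed are among the 809. From oocytes to late embryos the deposited table gave -0.97 for Kdm3a, -1.44 for Kdm3b, -2.36 for Jmjd1c and -3.02 for Kdm4b, and no normalization gave -1.71, -2.18, -3.10 and -3.76. From zygote to 2-cell, no normalization gave -2.10 for Kdm3b, -2.68 for Jmjd1c and -1.07 for Kdm4b. Values without normalization include the difference in input between whole oocytes or zygotes and blastomere samples. It also gave 0.58 for Kdm4a from 2-cell to 4-cell, and -0.60 for Jmjd1c and -1.75 for Kdm4a from 16-cell to 32-cell. From 8-cell to 16-cell the deposited table gave -1.48 for Jmjd1c, -1.74 for Kdm3b and -1.26 for Kdm4a. Calls of all genes between oocytes and late embryos were 59 higher and 73 lower, against 20 and 115 in the deposited table and 19 and 117 without normalization.

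In whole embryos, added after seeing the data, normalized differences turned to -1.28 for Jmjd1c, -0.95 for Kdm3b and -1.04 for Kdm4a from 16-cell to 32-cell, and to -0.0286 for Kdm3b from 2-cell to 4-cell. Without normalization they were -3.18, -2.85 and -2.94 for the first 3, 0.45 for Jmjd1c from 4-cell to 8-cell and 2.51 for Kdm3a from 8-cell to 16-cell. The whole 16-cell embryos stood apart in control Ct. The cause was not tested.

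Of the 2 members related to the lineage score, 1 remained called by count with 32-cell embryos only, without Hnrnpr, without Ube2e1 and with 2 left-out samples added, and 0 with single cells only, sample medians, no normalization, unweighted slopes or an exact sign-flip permutation. Of all 156 genes, 14 then passed with a positive and 12 with a negative slope with single cells only, 14 and 22 with sample medians, 11 and 10 without normalization, 0 and 1 with unweighted slopes and 0 and 0 by sign-flip (21 at an unadjusted p below 0.05), against 27 and 19. The last 2 gave -0.00468 for Jmjd1c and -0.0643 for Kdm3a. Leaving out 1 embryo at a time gave 1 to 2 such members, 11 to 12 of the stage calls, 5 to 5 of the calls between oocytes and late embryos and 13 to 15 of the gaps. Larger groups were not left out one by one.

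Embryo numbers did not pair the samples: of 112 pairs of equal number, 32 had a correlation above 0.1 (median 0.00695). With the number as a replicate block, 9 stage calls passed instead of 12, and 5 between oocytes and late embryos. The 16-cell stage rests on 2 embryos, and Ct near 30 limits Kdm4b and Kdm4c in shallow samples.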
